A study of Rattus norvegicus with 42 samples.

Results

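Imprinted genes are read mainly from 1 parental copy, and 10 of them were followed here in the hippocampus of neonatal rats given an anti-seizure drug. The genes were Nap1l5, Igf2, Mest, Peg3, Ndn, Snrpn, Dlk1, Plagl1, Grb10 and Cdkn1c. All transcripts in the count table that carry these symbols were taken, which gave 14 transcripts of 10 genes among 15516 transcripts of 14304 genes. Nap1l5 had been chosen by its log2 fold change after phenobarbital (PB) against vehicle in these same animals, and the other 9 as further imprinted genes. The values of the 10 genes in PB against vehicle are therefore a description and carry no test.

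The animals were male Sprague Dawley pups, 1 hippocampal RNA library per animal. Each received on postnatal day (P) 7 an intraperitoneal injection of saline (vehicle, VEH), PB at 75 mg/kg, which enhances GABA-A receptor currents, or levetiracetam (LEV) at 200 mg/kg, which binds the synaptic vesicle protein SV2A. No allele or transgene is named for any group. Hippocampi were taken 72 h later, at P10, from 13 VEH, 14 PB and 14 LEV animals, and a further VEH animal that its label marks as excluded, for its sequencing coverage in the study's methods, was left out. Each litter gave 1 pup to each treatment group. The sample codes have 2 forms, used as the batch: animals 1 to 6 of each group (series 1) and animals 7 to 14 (series 2). Total estimated counts ranged from 9499494 to 14488125 per library. Of 13062 transcripts tested, 5.39% had an adjusted p under 0.05 in PB against VEH, 0.00766% in LEV against VEH and 4.45% in PB against LEV, and all 14 transcripts of the 10 genes were among those tested.

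In an imprinted gene, the copy from 1 parent is largely silent. Which copy this is depends on a methylation mark set in the egg or the sperm. Nap1l5, Igf2, Mest, Peg3, Ndn, Snrpn, Dlk1 and Plagl1 are expressed from the paternal copy in most tissues, though not in every one. Cdkn1c, an inhibitor of the cell cycle, is expressed from the maternal copy, while Grb10, an adaptor that restrains insulin signalling, is maternal in most tissues and paternal in neurons. As a class these genes are known for their roles in fetal growth and in the development of the brain. The counts add both copies of a gene, so the parent of origin was not measured. In whole tissue, fewer cells of a type and less RNA per cell cannot be told apart. The hippocampal label was checked against its markers: Prox1 (granule neurons of the dentate gyrus) lay between 497.9 and 1165 normalized counts, and Neurod6 (pyramidal neurons) between 2788 and 4131, in all 41 animals. Wfs1, also on that list, varied more, from 304.4 to 1811.1. Of the markers listed for thalamus and other diencephalon, Slc17a6 (837.7 to 1216.4), Tcf7l2 (93.07 to 273.8) and Lhx9 (27.05 to 77.06) were found in every animal. Gbx2 was at 0 in 30 animals.

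The sequence upstream of the start is shown for Nap1l5, the gene with the lower level after PB, and for Igf2, whose starts are counted as separate transcripts. The 250 bases before each start come from the RefSeq promoter table of assembly GRCr8, which held 10 windows for 9 of the 10 genes. They are printed 5′ to 3′ on the strand of the gene, with CG dinucleotides, the sites that DNA methylation marks, in capitals.

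Nap1l5, chr4:89354705-89354954, minus strand: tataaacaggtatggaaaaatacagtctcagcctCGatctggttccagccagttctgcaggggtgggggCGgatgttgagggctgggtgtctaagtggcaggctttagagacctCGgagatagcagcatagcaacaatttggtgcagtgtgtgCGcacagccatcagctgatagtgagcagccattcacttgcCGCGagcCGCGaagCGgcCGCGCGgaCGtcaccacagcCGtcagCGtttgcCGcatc

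Igf2 upstream start, chr1:207253981-207254230, minus strand: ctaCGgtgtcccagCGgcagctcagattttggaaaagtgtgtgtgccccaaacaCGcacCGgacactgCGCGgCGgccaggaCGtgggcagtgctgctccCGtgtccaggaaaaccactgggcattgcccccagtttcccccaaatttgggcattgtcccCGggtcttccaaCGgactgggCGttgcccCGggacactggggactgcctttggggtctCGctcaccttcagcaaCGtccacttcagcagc

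Igf2 downstream start, chr1:207250476-207250725, minus strand: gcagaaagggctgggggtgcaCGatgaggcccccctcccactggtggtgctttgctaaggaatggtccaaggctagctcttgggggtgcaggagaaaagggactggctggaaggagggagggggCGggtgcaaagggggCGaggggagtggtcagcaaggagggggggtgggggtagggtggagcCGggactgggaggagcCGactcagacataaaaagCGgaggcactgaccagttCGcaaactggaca

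The Nap1l5 window held 16 CG dinucleotides, and 23.8% of the 33469 promoter windows of this length had at least as many. The 2 Igf2 windows held 15 and 7, numbers reached by 25.8% and 45.2% of all windows. Over the 10 windows the median was 15, against 5 over all windows, and Dlk1 with 41 and Grb10 with 38 had the highest numbers among them. These counts describe the letters only, since methylation was not measured. The 2 Igf2 starts lie 3505 bases apart in GRCr8, the same distance that separates the starts of NM_001190163 and NM_001190162 in the count table, which is on rn6. Cdkn1c has no window shown.

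Nap1l5 belongs to the family of nucleosome assembly proteins, which carry histones, and lies on rn6 chromosome 4 at 89149317 to 89151185. It has no intron, and the whole gene sits within the span of Herc3 (89078711 to 89169147), a gene for an ubiquitin ligase. The unit below, a normalized count, is the estimated count of a transcript scaled to a library of average size. VEH animals had from 2030.4 to 2686.9 normalized counts of Nap1l5 (median 2237.1, n = 13). PB animals had from 1361.7 to 2126.7 (median 1831.7, n = 14), and LEV animals from 2012.9 to 2706.7 (median 2309.8, n = 14). All but 1 PB animal were below the lowest VEH animal, while the LEV values covered the VEH range. The means were 2333.8 ± 210.5 (SD) in VEH, 1801.6 ± 209.8 in PB and 2339.7 ± 193.9 in LEV. With the series as a covariate, the log2 fold change of PB against VEH was -0.37 ± 0.05 (SE), a change of -22.8%, and 14 of 14 PB animals were below the VEH mean of their own series. Of 13062 transcripts, Nap1l5 ranked 125th from the lowest by log2 fold change in that comparison, the one by which it had been chosen.

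**Figure D1:**
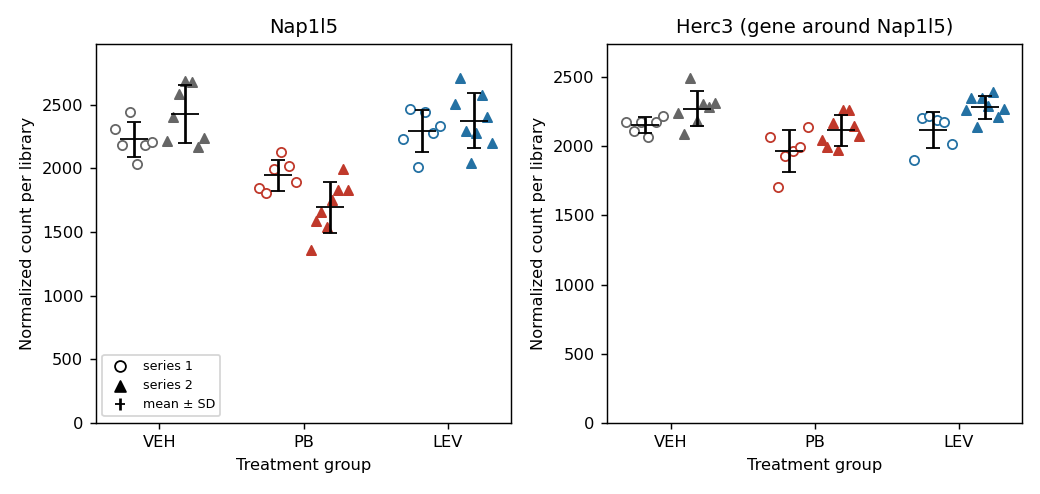
Normalized count per library of Nap1l5 (left) and Herc3 (right) for each animal, by treatment group. Open circles are series 1, filled triangles series 2, and bars give the mean ± SD of each group and series. In series 2 the 8 PB animals lie below all VEH and LEV animals for Nap1l5, while for Herc3 the groups overlap.

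The PB means were below the VEH means in both series, by more in series 2. In series 1, Nap1l5 averaged 2226.7 ± 138.7 (SD, n = 6) in VEH and 1946.6 ± 122.1 (n = 6) in PB, and 5 of 6 PB animals were below the lowest VEH animal. In series 2, it averaged 2425.6 ± 226.5 (n = 7) in VEH and 1692.9 ± 199 (n = 8) in PB, and all 8 PB animals were below the lowest VEH animal. Fitted alone, series 1 gave a log2 fold change of -0.19 ± 0.05 (SE) and series 2 gave -0.52 ± 0.07. The difference between the series was -0.33 ± 0.10 on the log2 scale, given without a test because the gene was chosen on these PB and VEH values. The VEH animal marked as excluded had 994.2 normalized counts, below all 13 other VEH animals. With that animal kept, the log2 fold change of PB against VEH was -0.31 ± 0.08.

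LEV animals did not differ detectably from VEH in Nap1l5. The log2 fold change was 0.00 ± 0.05 (SE), with limits of -0.10 and 0.11 at 2 SE, and the adjusted p of edgeR's quasi-likelihood test was 0.99. PB against LEV, which uses the same PB animals as the comparison that picked the gene, gave -0.38 ± 0.05, and every one of the 14 PB animals was under the mean of the LEV animals in the same series.

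Markers of GABA neurons, listed as Gad1, Gad2, Slc32a1, Sst and Lhx6, were in part lower after PB too. All 5 were detected in every animal. Of their 5 tested transcripts 2 were lower in PB than in VEH (adjusted p under 0.05, edgeR), as were 3.46% of all transcripts. The sum of the 5 markers was 4769.7 to 7164.2 normalized counts in VEH, 4251.8 to 6795.1 in PB and 5777.2 to 7437.7 in LEV. Among animals of the same group and series, Nap1l5 and this sum varied together, with Pearson's r of 0.47 (permutation p = 0.00201) and Spearman's rho of 0.43 (permutation p = 0.00558) over 41 animals. Adjusted over the 10 relations computed after the data were seen, the p-values were 0.0067 and 0.0186. Within the series r was 0.59 and 0.43, and without the 2 animals farthest from the median it was 0.54. With the sum as a covariate beside series, the log2 fold change of Nap1l5 in PB against VEH was -0.25 ± 0.06 (SE). A wider neuronal list of 6 genes, including Rbfox3 and Snap25, gave -0.34 ± 0.06 as covariate, and 1 of its 8 tested transcripts was lower in PB than in VEH. The sum of this list and Nap1l5 had r of 0.25 (permutation p = 0.0948, adjusted p = 0.135) and rho of 0.23 (permutation p = 0.142, adjusted p = 0.178). Within the series r was -0.002 and 0.45. Markers of hippocampal excitatory neurons were also lower in part, 2 of 7 tested transcripts, with a median log2 fold change of -0.13 against -0.16 for the GABA neuron list. Their sum over 6 genes was 20144 to 25187.5 normalized counts in VEH, 17701.4 to 22306.3 in PB and 18055.8 to 24891.9 in LEV. Whether the lists differed from each other was not tested. The sums were made from the same libraries as Nap1l5, and the part of any of these lists in the difference was not tested further.

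Skeletal muscle markers also separated the groups, though in series 1 alone. Their sum over 7 genes was 306.1 to 462.6 in VEH, 119.5 to 160.8 in PB and 270.1 to 565.5 in LEV of series 1, against 71.9 to 169 over all groups of series 2. Ckm, a defining muscle gene, was at 0 in 26 of 41 animals, and Acta1 had the highest median of the 7, 122.6 normalized counts. With the muscle sum as covariate, the log2 fold change of Nap1l5 in PB against VEH was -0.46 ± 0.07 (SE), and the part of these markers in the difference was not tested.

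Herc3, the gene around Nap1l5, was lower in PB by a smaller amount. It ran from 2067.5 to 2491.5 normalized counts in VEH, from 1704.4 to 2262.1 in PB and from 1901.6 to 2389.8 in LEV, so that the groups overlapped. Its log2 fold change was -0.12 ± 0.03 (SE) in PB against VEH (adjusted p = 0.017, edgeR), with 14 of 14 PB animals below their series' VEH mean. In PB against LEV it was -0.11 ± 0.03 (adjusted p = 0.0268), and in LEV against VEH -0.01 ± 0.03 (adjusted p = 0.99). Both genes overlap in the genome and the strand used in counting is not given in the sources used here, so their reads may not be fully separable. Over the 41 animals, within group and series, Nap1l5 and Herc3 had Pearson's r of 0.27 (permutation p = 0.0818) and Spearman's rho of 0.25 (permutation p = 0.117), adjusted p 0.135 and 0.167 over the same 10 relations.

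Only Nap1l5 and Ndn are single-exon genes, so only for them does the genomic span give a length for comparing levels. Per kilobase, Ndn averaged 3596 ± 177 (SD, n = 13) normalized counts in VEH and Nap1l5 1249 ± 113. In PB the mean of Nap1l5 per kilobase was 964 ± 112 (n = 14). The other genes are compared here only with themselves.

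Among the 14 transcripts, 1 was called in PB against VEH, by an adjusted p under 0.05 alone and with a log2 fold change of at least 0.32 in size as well (the study's fold limit), where 5.39% and 0.605% of all transcripts were called. That transcript was Nap1l5, which the choice of genes fixed. DESeq2 called 2 of the 14 in PB against VEH by either rule, where it called 909 and 81 of all 13062 transcripts. The second was Cdkn1c NM_182735, given as a description. None of the 14 was called with the GABA neuron sum as covariate or in series 1 alone, when 11 and 64 of all transcripts were. Of the 14, 7 had a higher and 7 a lower fitted level in PB, with a median log2 fold change of 0.12, against 0.01 over all tested transcripts. In PB against LEV 1 of 14 was called by both rules, where 4.45% and 0.582% of all transcripts were. It was Nap1l5, and its choice had used the same PB animals, so this call is no separate support. In LEV against VEH none of the 14 was called, where 0.00766% of all transcripts had an adjusted p under 0.05. There, 1 of the 14 had an unadjusted p under 0.05, against 5.84% of all transcripts. DESeq2 also called none of the 14, where it called 10 of all transcripts by adjusted p and 5 with the fold limit. The fitted level was higher in LEV for 13 of the 14, 6 of which belong to Igf2 and Cdkn1c, with a median log2 fold change of 0.11 against 0.00 over all transcripts.

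**Figure D2:**
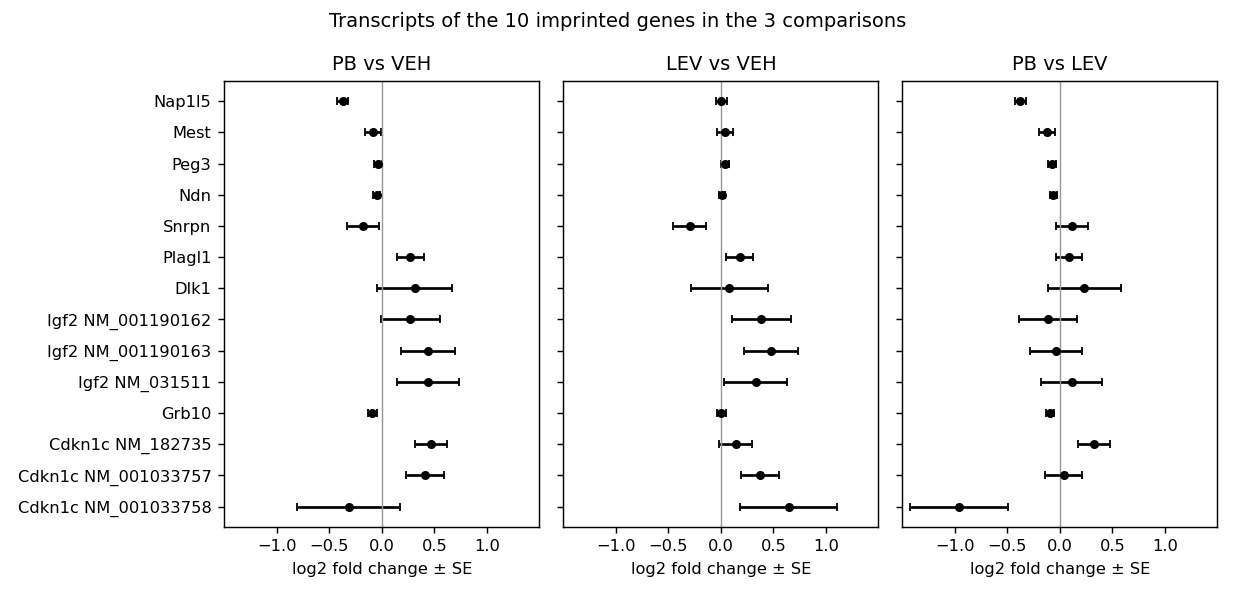
Fitted log2 fold change ± SE of the 14 transcripts (rows) in PB against VEH, LEV against VEH and PB against LEV, 13 VEH, 14 PB and 14 LEV animals. Nap1l5 lies near -0.37 in both comparisons with PB and near 0 in LEV against VEH, while Cdkn1c NM_001033758 and Dlk1 have the widest errors.

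Peg3, Ndn and Mest are paternally expressed, and none of them differed from VEH detectably in LEV. Peg3, a zinc finger protein, ran from 7071.1 to 11264.6 normalized counts in VEH, from 8723.2 to 10385.5 in PB and from 9392.9 to 10861.7 in LEV. Its log2 fold change was -0.04 ± 0.04 (SE) in PB against VEH and 0.04 ± 0.04 in LEV against VEH (adjusted p = 0.95, edgeR). Ndn encodes necdin, a protein of neurons that have left the cell cycle. It had 5268.3 to 6157.6 in VEH, 4946.7 to 6255.5 in PB and 5218.5 to 6420.0 in LEV, with log2 fold changes of -0.05 ± 0.03 and 0.01 ± 0.03 (adjusted p = 0.99 for LEV). Mest, an enzyme of the hydrolase fold, had 169.5 to 255 in VEH, 153.8 to 277.6 in PB and 190.9 to 270.9 in LEV. Its log2 fold changes were -0.09 ± 0.08 and 0.04 ± 0.08 (adjusted p = 0.99 for LEV). For all 3 genes the groups overlapped over most of their ranges. In PB against LEV none of the 3 passed, with log2 fold changes of -0.08 ± 0.04 for Peg3 (adjusted p = 0.27), -0.06 ± 0.03 for Ndn (adjusted p = 0.24) and -0.12 ± 0.08 for Mest (adjusted p = 0.38).

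Plagl1, a zinc finger factor that controls growth genes, was above the VEH mean of its series in 13 of 14 PB and 11 of 14 LEV animals. VEH animals had from 119.2 to 372 normalized counts (median 317.9), PB animals from 289.8 to 456.8 (median 340.3) and LEV animals from 206.2 to 506 (median 323.2). The lowest VEH values, in animals 9 and 13, had no counterpart in PB, and most of the range was shared. The log2 fold changes were 0.27 ± 0.13 (SE) in PB against VEH, 0.18 ± 0.13 in LEV against VEH (adjusted p = 0.91) and 0.09 ± 0.12 in PB against LEV (adjusted p = 0.75, edgeR).

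Dlk1, a membrane protein related to Notch ligands, was close to the limit of detection. It had 1.07 to 29.4 normalized counts in VEH, 3.88 to 48.5 in PB and 3.04 to 22.0 in LEV. Differences of the size seen for Nap1l5 were not detectable at these counts, as the SE of the log2 fold change was 0.36 in both comparisons with VEH. The fitted log2 fold change of PB against VEH, 0.32, rested on PB animal 11 and was -0.01 without it.

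Snrpn held only a small part of the counts listed for its locus. Snurf and Snrpn are read from 1 transcript that encodes both proteins, and the table lists 3 transcripts for them. The 1 named Snrpn, a protein of the splicing machinery, held a median of 1.09% of their summed counts, and Snurf NM_130738 held 97.2%. Snrpn itself had 58.6 to 134.8 normalized counts in VEH, 31.7 to 141.4 in PB and 60.3 to 105.2 in LEV, ranges that overlapped widely. Its log2 fold change was -0.18 ± 0.16 (SE) in PB against VEH and -0.29 ± 0.16 in LEV against VEH (adjusted p = 0.84, edgeR). Since estimated counts are shared out among overlapping transcripts, the low Snrpn values are uncertain. The rn6 annotation of the counts also places Snrpn on chromosome 1 at 195074328 to 195096461, with Ndn at 122981755. In GRCr8 the promoter windows of the same genes start at 120338920 and 125260809 on that chromosome. The part of this placement in the low values was not tested.

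Snurf NM_130738 was lower after PB. It had 6416.2 to 9101.7 normalized counts in VEH, 5542.9 to 7890.9 in PB and 7123.8 to 8469.1 in LEV, and 14 of 14 PB animals were below the VEH mean of their series. The log2 fold change was -0.15 ± 0.04 (SE) in PB against VEH (adjusted p = 0.0241) and -0.15 ± 0.04 in PB against LEV (adjusted p = 0.0266, edgeR). Against VEH it was -0.07 in series 1 alone and -0.21 in series 2 alone. Summed over the 3 transcripts, an addition made after the data were seen, the locus averaged 8206.9 ± 617.7 (SD) in VEH, 7414.3 ± 550.2 in PB and 8159.4 ± 363.5 in LEV. The summed log2 fold changes were -0.15 ± 0.04 for PB and -0.01 ± 0.04 for LEV, each against VEH.

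Igf2, the fetal growth factor made in the brain mainly by choroid plexus and meninges, varied far more between animals than between groups. Its 3 transcripts share an end and differ in their start, and NM_001190162, from the downstream start printed above, held a median of 87.5% of the counts. Summed over the 3, VEH animals ran from 844.2 to 4235.8 normalized counts (median 2174.6), PB animals from 394.6 to 6534.3 (median 2209.4) and LEV animals from 1368.3 to 5293.6 (median 2737.3). The lowest and the highest of the 41 animals, 2 and 3, were both PB animals of series 1. The summed log2 fold changes were 0.29 ± 0.27 (SE) in PB against VEH and 0.39 ± 0.27 in LEV against VEH (adjusted p = 0.91, edgeR). With these errors a change as large as that of Nap1l5 was not detectable.

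The markers of choroid plexus, the tissue that makes cerebrospinal fluid, differed widely between dissections. All 12 listed markers were found, led by Ttr (transthyretin), and their sum ran from 157.3 to 54008.4 normalized counts in VEH (median 2830.7), from 175.3 to 85469.3 in PB (median 8461.8) and from 150.8 to 62052.1 in LEV (median 21542.7). With group and series means removed, Igf2 followed this level with Pearson's r of 0.84 and Spearman's rho of 0.89 over 41 animals. The permutation p was 1e-05 for both, the smallest that 100000 permutations can give, and the adjusted p over the 10 genes was 0.0001. It held within each series, with r of 0.85 and 0.87, and without the 2 animals farthest from the median, with r of 0.85. With the choroid plexus level as covariate, the log2 fold change of Igf2 NM_001190162 was -0.08 ± 0.15 (SE) in PB against VEH and 0.09 ± 0.15 in LEV against VEH, compared with 0.27 ± 0.28 and 0.39 ± 0.28 without it. Igf2 also followed the sum of 9 meningeal and fibroblast markers, with r of 0.77 and rho of 0.63 (permutation p = 1e-05 and 5e-05). Adjusted over the 10 relations computed after the data were seen, the p-values were 5e-05 and 0.00025, and within the series r was 0.90 and 0.51.

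**Figure D3:**
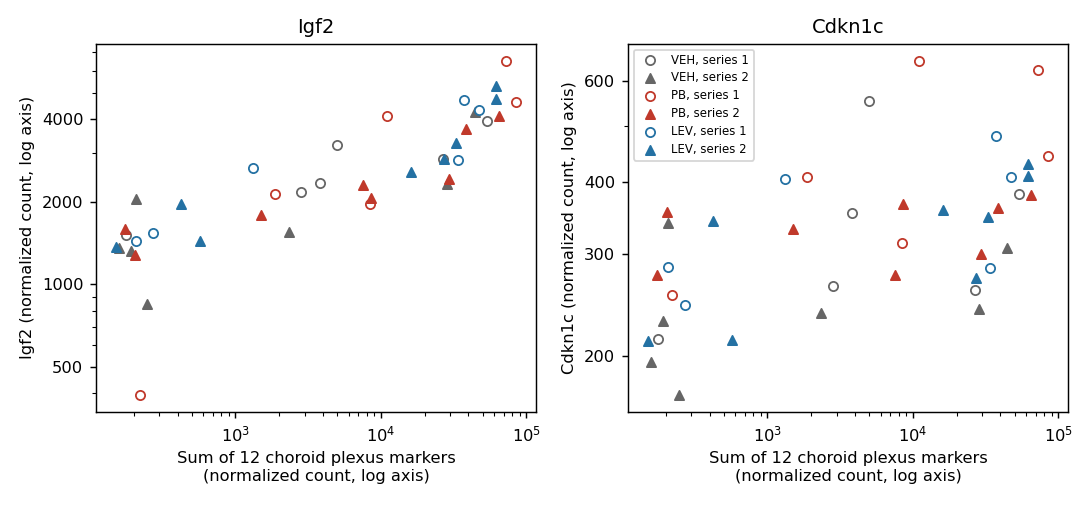
Normalized count of Igf2 (left) and Cdkn1c (right), each summed over its transcripts, against the summed level of 12 choroid plexus markers, for 41 animals. Both axes are logarithmic, colours give the group, open circles series 1 and filled triangles series 2, and Igf2 climbs with the marker level in all groups while Cdkn1c does so with more scatter.

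Of the other 9 genes, Cdkn1c and Mest were related to the choroid plexus level after adjustment. Cdkn1c had r of 0.54 (permutation p = 0.00036, adjusted p = 0.0018) and rho of 0.56 (permutation p = 0.00026, adjusted p = 0.0013), with r of 0.58 and 0.52 within the series and 0.46 without the 2 farthest animals. Mest had r of 0.41 (permutation p = 0.0101, adjusted p = 0.0335) and rho of 0.40 (permutation p = 0.0114, adjusted p = 0.0379), but r was 0.04 within series 1 and 0.60 within series 2, so that its relation did not hold in both. Nap1l5 had r of -0.02 (permutation p = 0.90) and rho of -0.03 (permutation p = 0.84), with an adjusted p of 0.97 and 0.85.

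Cdkn1c, which encodes the cell cycle inhibitor p57, was higher in most PB animals than in VEH. Summed over its 3 transcripts, VEH animals had from 170.9 to 554.3 normalized counts (median 259.8), PB animals from 255 to 650.1 (median 358.2) and LEV animals from 212.4 to 481.5 (median 345.2). The ranges overlapped, and 12 of 14 PB and 9 of 14 LEV animals were above the VEH mean of their series. The summed log2 fold changes were 0.42 ± 0.14 (SE) in PB against VEH, 0.25 ± 0.14 in LEV against VEH (adjusted p = 0.84) and 0.17 ± 0.14 in PB against LEV (adjusted p = 0.51, edgeR). Its main transcript, NM_182735, held a median of 62.8% of the counts and gave 0.47 ± 0.15 in PB against VEH, or 0.38 ± 0.14 with the choroid plexus level as covariate. In PB against VEH this transcript was called by DESeq2 but not by edgeR. The paper lists Cdkn1c among the oligodendrocyte genes that were differentially expressed after PB. The 3 transcripts have nearly the same ends, so the division of counts among them is uncertain, and NM_001033758 had as few as 1.04 normalized counts. Cdkn1c also followed the meningeal and fibroblast sum, with r of 0.75 and rho of 0.75 (permutation p = 1e-05 for both, adjusted p = 5e-05 and 0.0001), and r of 0.85 and 0.54 within the series. With the mature oligodendrocyte markers, another of the 10 relations, Cdkn1c had r of 0.46 (permutation p = 0.00597, adjusted p = 0.0149) and rho of 0.36 (permutation p = 0.0291, adjusted p = 0.0728), with r of 0.41 and 0.58 within the series.

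Grb10 was slightly lower in PB, below the VEH mean of its series in 11 of 14 animals. It had 803.1 to 1056 normalized counts in VEH, 764.8 to 1046 in PB and 822.4 to 1029 in LEV, ranges that nearly coincide. The log2 fold changes were -0.09 ± 0.04 (SE) in PB against VEH, 0.01 ± 0.04 in LEV against VEH (adjusted p = 0.99) and -0.10 ± 0.04 in PB against LEV (adjusted p = 0.16, edgeR).

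The LEV changes of the 10 genes were then compared between series. None of the 14 transcripts had an adjusted p under 0.05 for the series-by-treatment term of LEV in edgeR or in DESeq2. Of all 13062 transcripts, 110 in edgeR and 215 in DESeq2 did. With so few called among all, none of 14 does not show that the series agreed. Of the 14, 1 had an unadjusted p under 0.05 with each tool. In edgeR this was Mest, whose log2 fold change against VEH was -0.14 in series 1 and 0.18 in series 2 (difference 0.32 ± 0.15, adjusted p = 0.34).

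How the 10 genes varied together among animals of the same group and series was examined over all 45 pairs. After adjustment 7 pairs had a p under 0.05, and in all 7 the correlation was positive and of the same sign in both series. Igf2 and Cdkn1c formed the closest pair, with r of 0.77 and rho of 0.77 (permutation p = 1e-05, adjusted p = 0.00045). Peg3 and Plagl1 had r of 0.58 (permutation p = 0.00039, adjusted p = 0.00877) and rho of 0.40 (permutation p = 0.0126, adjusted p = 0.0811). Without the 2 animals farthest from the Peg3 median, r dropped to 0.30 and so rests on them in part. For Nap1l5 the closest was Grb10, with r of 0.50 and rho of 0.50 (permutation p = 0.00127 and 0.00128, adjusted p = 0.019 and 0.0198), but r was 0.13 within series 1 and 0.67 within series 2. The other 4 pairs were Ndn with Plagl1 (r = 0.47), Mest with Plagl1 (r = 0.46), Peg3 with Grb10 (r = 0.43) and Igf2 with Dlk1 (r = 0.42), the adjusted permutation p of r ranging from 0.0226 to 0.0366. Without the 2 animals farthest from the median of the first-named gene, r was 0.46, 0.45, 0.29 and 0.28 for these 4 pairs. The last 2 pairs thus rest on those animals in part. Animals extreme only in the second gene were kept, so the first 2 pairs may still rest on such animals. By rho, the adjusted permutation p was 0.0198 for Ndn with Plagl1, and 0.0811, 0.235 and 0.0758 for the other 3. All values share the scaling of their library, and pairs among other genes were not counted for comparison.

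**Figure D4:**
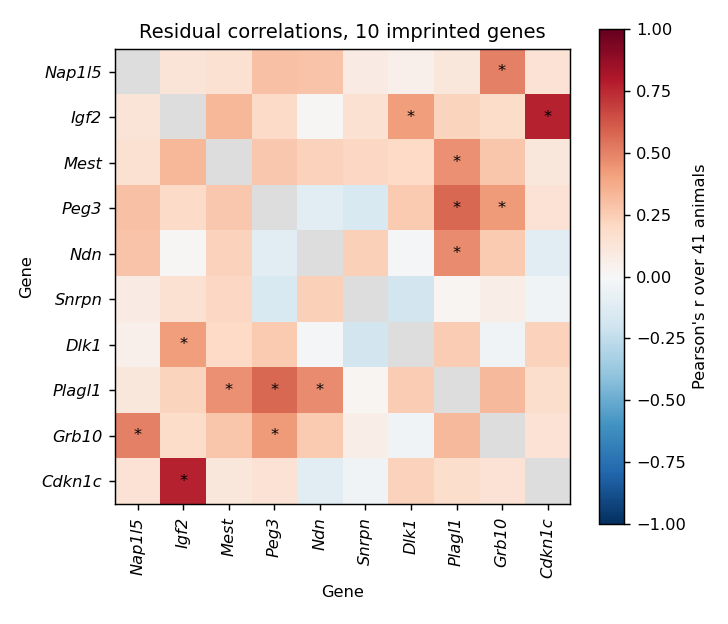
Pearson's r between the log2 levels of the 10 genes over 41 animals, with the mean of each group and series removed. Colour runs from -1 (blue) to 1 (red), grey marks a gene with itself, and stars mark the 7 pairs with an adjusted permutation p under 0.05, of which Igf2 with Cdkn1c has the highest r, 0.77.

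The transcripts most like each gene were ranked by Pearson's r of residual log2 level over the 41 animals, each gene against the tested transcripts of all other genes, as a description with no test. For Nap1l5 they were Vxn (r = 0.72), Uqcrfs1, a subunit of respiratory complex III (0.70), the proton pump subunits Atp6v1e1 (0.69) and Atp6v0e2 (0.68), and Scg5, a chaperone of the secretory pathway (0.68). For Igf2 they were Ogn, listed at 2 positions (0.95 each), Slc13a4 (0.94), Slc2a12 (0.92) and Igfbp2, which binds insulin-like growth factors (0.89). Cdkn1c was most like Crabp2 (0.69) and Aldh1a2 (0.68), of the retinoic acid pathway, then Sned1, Aebp1 and Mpzl2 (0.67 to 0.68). Ogn is also on the meningeal and fibroblast list used above.

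Peg3 was most like Gda (r = 0.85), Cntn1, Ahi1, Synj1 and Gabra2 (0.78 to 0.81), and Plagl1 like Cadm1 (0.83), Nr2f2, Ntng1, Timp2 and Igfbp5 (0.77 to 0.83). Ndn was most like Sdc3 (0.73), Blcap, Tubb5, C2cd4c and Cobl (0.67 to 0.71), where Blcap is itself on the wider list of imprinted genes. Mest was led by Siae (0.71), followed by Slc66a3, Phactr2, Lrch1 and Prlr (0.61 to 0.64), and Grb10 by Klf4 (0.64), followed by MGC109340, Lrrtm2, Agpat4 and Rprd1a (0.59 to 0.63). Snrpn and Dlk1, with few counts, were led by Klhl36 (0.67) and Ddah1 (0.59). The next in order were Nr2f6, Akr7a2, Dok7 and Fgfrl1 for Snrpn (0.53 to 0.57) and Elovl4, Pomc, Pih1d3 and Efhc2 for Dlk1 (0.53 to 0.58).

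A wider list of 38 imprinted genes gives the context. It was written by hand with earlier results of these data known, so its shares are a description with no test. Of these, 28 genes were in the count table and 25, with 34 transcripts, were tested. In PB against VEH 5 of 34 transcripts had an adjusted p under 0.05, or 14.7% against 5.39% of all transcripts: 2 were higher and 3 lower. The shares of all transcripts were 1.93% higher and 3.46% lower. With the fold limit there were 2, against 0.605%. PB against LEV gave 4 of 34 and 1, against 4.45% and 0.582%, of which 1 was higher and 3 lower, against 1.67% and 2.78%, and LEV against VEH gave 0, against 0.00766%, with 1 transcript at an unadjusted p under 0.05. The median log2 fold change of the list was -0.02 in PB against VEH, where that of all transcripts was 0.01. Herc3 and Snurf NM_130738, described above, were among those lower. None of the 5 calls in PB against VEH held with the GABA neuron sum as covariate, when 11 of all 13062 transcripts were called. The same was so with the muscle sum, when 327 were, and with the wider neuronal sum, when 285 were. Several fitted changes kept their size. With the GABA neuron sum the log2 fold change was 0.66 for H19 and -0.15 for Snurf NM_130738, as large as without it, while Herc3 (-0.06), Gnas NM_019132 (-0.04) and Nnat NR_073089 (0.44) had smaller values. With the muscle sum H19 was at 0.72, Herc3 at -0.12, Gnas NM_019132 at -0.11 and Snurf NM_130738 at -0.13, and Nnat NR_073089 at 0.33. In series 1 alone, where 2.64% of all transcripts were called in LEV against VEH, 1 of the 34 was, Ube3a, named after its values were seen (log2 fold change -0.27 ± 0.06, SE, adjusted p = 0.0137, edgeR).

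H19, a non-coding RNA read from the maternal copy beside Igf2, rose after PB. It had 18.1 to 53.4 normalized counts in VEH (median 31.2), 24.5 to 90.6 in PB (median 48.8) and 21.6 to 48.1 in LEV (median 31.7). Of 14 PB animals, 13 were above the VEH median and 6 above the highest VEH animal, though the ranges overlapped. The log2 fold change was 0.61 ± 0.17 (SE) in PB against VEH (adjusted p = 0.0264) and 0.69 ± 0.17 in PB against LEV (adjusted p = 0.0137, edgeR). Against VEH, the adjusted p was 0.0572 without PB animal 10 and 0.0588 when animal numbers entered as a block. H19 did not follow the choroid plexus level (r = -0.01, permutation p = 0.94; rho = 0.03, permutation p = 0.87) or Igf2 (r = 0.15, permutation p = 0.35; rho = 0.20, permutation p = 0.21) detectably over 41 animals, with adjusted p from 0.24 to 0.94.

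Gnas NM_019132, a transcript of the gene for the stimulatory G protein alpha subunit, fell after PB by a small amount. It had 9298.9 to 11445.7 normalized counts in VEH, 8285.5 to 10138.5 in PB and 9691.5 to 11012.7 in LEV. The log2 fold change was -0.11 ± 0.03 (SE) in PB against VEH (adjusted p = 0.0256) and -0.15 ± 0.03 in PB against LEV (adjusted p = 0.00336, edgeR). The first call was lost without PB animal 7 (adjusted p = 0.0545) or VEH animal 11 (adjusted p = 0.0575), as it was when animal numbers entered as a block (adjusted p = 0.0658). In series 1 alone the value against VEH was -0.03, and in series 2 alone -0.18.

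Nnat, which encodes the small membrane protein neuronatin, had 1 non-coding transcript, NR_073089, that was higher after PB. It had 33.3 to 123.4 normalized counts in VEH, 45.6 to 214.3 in PB and 49.6 to 121.3 in LEV. The log2 fold change against VEH was 0.56 ± 0.17 (SE, adjusted p = 0.0474, edgeR), 0.94 in series 1 alone and 0.23 in series 2 alone, and the call held in 18 of 41 fits that left out 1 animal. The far more abundant coding transcripts NM_181687 and NM_053601 gave -0.03 ± 0.04 (adjusted p = 0.72) and 0.10 ± 0.06 (adjusted p = 0.34).

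**Figure D5:**
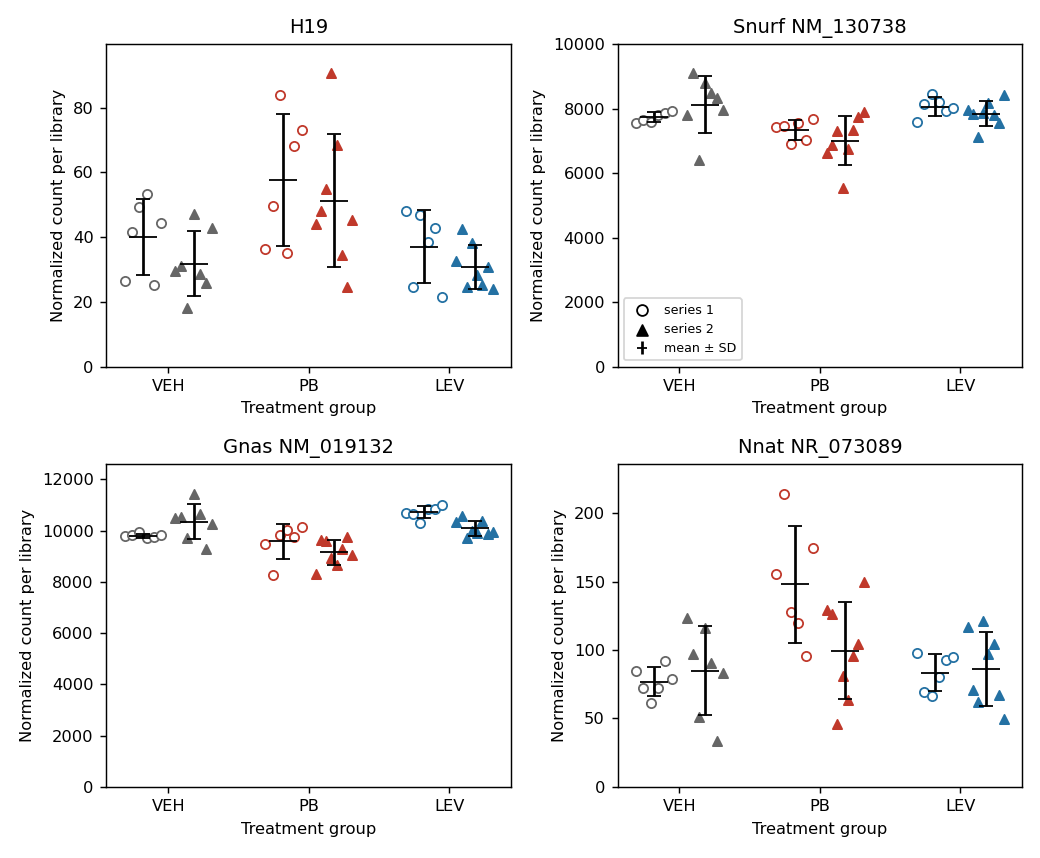
Normalized count per library of H19, Snurf NM_130738, Gnas NM_019132 and Nnat NR_073089 for each animal, by treatment group. Open circles are series 1, filled triangles series 2, and bars give mean ± SD; the PB animals are shifted upwards for H19 and downwards for Snurf, with overlap in all 4 panels.

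The remaining neighbours and partners of the 10 genes did not pass the threshold with all 41 animals. In PB against VEH, Usp29, beside Peg3, had a log2 fold change of 0.10 ± 0.04 (SE, adjusted p = 0.12, edgeR), with 13 of 14 PB animals above their series' VEH mean. Without VEH animal 10 it was 0.13, with an adjusted p of 0.0406. Igf2r, the receptor that clears Igf2, had 0.08 ± 0.04 (adjusted p = 0.23), and Copg2, beside Mest, had -0.05 ± 0.03 (adjusted p = 0.26). Ube3a, the ubiquitin ligase next to Snrpn, had 0.01 ± 0.06 (adjusted p = 0.97). Low counts left Kcnq1 (0.24 ± 0.44, adjusted p = 0.82), Phlda2 NM_001170480 (-0.43 ± 0.23, adjusted p = 0.30) and the 3 Ddc transcripts (-0.50 to -0.26, adjusted p from 0.44 to 0.63) with wide errors. Meg3 and Magel2 were not analysed here.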

How the data were processed

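Hippocampal RNA of 42 pups was sequenced from NEBNext Ultra libraries. The authors aligned reads to rn6 with STAR 2.7.3a and divided them among RefSeq transcripts with Partek's E/M method. These deposited expected counts are not normalized, and 13.7% of the values are not whole. A deposited table of the authors' own DESeq2 comparisons (p-values, fold changes, group means) was not used.

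After rounding, edgeR 4.0.16 (R 4.3.3) was used: filterByExpr by treatment, TMM, and quasi-likelihood tests of treatment with series as covariate over 41 animals. P-values were adjusted by Benjamini-Hochberg over 13062 transcripts. The study's limits were used (adjusted p under 0.05, log2 fold change of at least 0.32 in size), and the adjusted p alone. A normalized count is the count divided by the TMM library size (9588079 to 13786159) times the mean size. With few counts, sampling error limits precision.

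Correlations used log2 CPM (prior count 2) with the mean of each group and series removed, and 100000 two-sided permutations within series (Python 3, numpy, scipy). The 2 animals left out as farthest were those farthest from the median of the marker sum, or of the first-named gene of a pair. The steps were tested on simulated data. The genes and lists were chosen with earlier results of these data known. All 10 genes are named. Of the wider list those with an adjusted p under 0.05 and fixed neighbours are named, and for likeness the 5 closest transcripts. Alternatives were DESeq2 1.42.0, other size factors, filters, designs, single series, marker covariates, and each animal left out.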

Additional observations from a re-analysis of the deposited data

Results flagged for a closer look

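Each of the 10 genes was examined for animals that stand apart within a group and series, 60 sets of 6 to 8 animals, by the gap to the nearest animal over the range of the set on the log2 scale (Dixon's 95% limit). Chance alone flags about 1 in 20 sets, and 3 were found. PB animal 3 had the highest Mest of its 6 animals, 277.6 normalized counts with the next at 217.2. PB animal 11 had the highest Dlk1 of its 8 animals, 48.5 with the next at 14.9. LEV animal 14 had the lowest Plagl1 of its 8 animals, 210.3 with the next at 298.3.

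The VEH animal whose label marks it as excluded entered no group comparison above except where it is said to be kept. Scaled together with the 41 animals, it had 5258.8 normalized counts of Igf2, 393.5 of Mest and 731.5 of Cdkn1c, each above the highest of the 13 other VEH animals (4231.2, 254.7 and 553.7). It was below all 13 in Nap1l5 (994.2), Snrpn (35.6) and Grb10 (640.5), and within their range in the other 4 genes.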

How the results depend on the processing

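Nap1l5 was below VEH and LEV in PB in all 17 settings other than leaving out an animal, with log2 fold changes from -0.52 to -0.19 against VEH and from -0.49 to -0.24 against LEV, and in all 41 fits without 1 animal. In PB against VEH, 1 of the 14 transcripts was called by either rule. This became 0 in series 1 alone and with the GABA neuron covariate, and 2 with DESeq2, in series 2 alone and with the meningeal covariate, the second being Cdkn1c NM_182735. With the excluded VEH animal kept it was 0 with the fold limit. In PB against LEV, 1 became 0 with the GABA neuron covariate by either rule, and in series 1 alone with the fold limit. Over all transcripts, 704 calls by adjusted p in PB against VEH ranged from 11 (GABA neuron covariate) to 909 (DESeq2), 581 in PB against LEV from 0 to 802 (the same settings), and 1 in LEV against VEH from 0 to 346 (series 1 alone). The causes were not tested. The marker covariates other than choroid plexus were chosen after seeing the data.

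In the wider imprinted list in PB against VEH, 5 calls by adjusted p became 0 with the GABA neuron or muscle covariate. H19 (0.66 and 0.72) and Snurf NM_130738 (-0.15 and -0.13) changed little in size there. The number became 1 with only the 2 groups compared or either series alone. It was 2 with the excluded animal kept and 3 with no series term. With the neuronal covariate 2 were called, but neither was 1 of the 5, whose adjusted p (edgeR) then ran from 0.12 to 0.32. The 2 calls with the fold limit became 0 with the GABA neuron, neuronal or muscle covariate, with only the 2 groups and in series 2 alone, and 1 with the choroid plexus covariate, counts summed per gene, the excluded animal kept, a mean of at least 50 counts, no filter, no series term, a robust fit and series 1 alone. In PB against LEV, 4 calls became 0 with the GABA neuron or neuronal covariate and in series 2 alone, 1 in series 1 alone, and 2 with the excluded animal kept or the muscle covariate. The 1 call with the fold limit became 0 with DESeq2, the GABA neuron or neuronal covariate, a mean of at least 50 counts and in series 2 alone. In LEV against VEH, 0 became 1 in series 1 alone.

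Without 1 animal, the calls among the 10 genes stayed at 1 in PB against LEV and ranged from 1 to 2 in PB against VEH, Cdkn1c NM_182735 being added without PB animal 1, 2, 4 or 5 or VEH animal 3 or 12. In the wider list they ranged from 3 to 5 (fold limit 1 to 2) in PB against VEH and from 2 to 5 (1 to 2) in PB against LEV, lowest in both without PB animal 7. Herc3 in PB against LEV was lost without LEV animal 2 or 3 or PB animal 7, and Snurf NM_130738 without PB animal 7, while Usp29 was gained in PB against VEH without VEH animal 10. Small log2 fold changes crossed 0: in LEV against VEH, Nap1l5 (-0.014 to 0.024), Grb10 (-0.010 to 0.019) and Dlk1 (-0.021 to 0.31); in PB against LEV, Cdkn1c NM_001033757 (-0.023 to 0.098), Igf2 NM_001190162 (-0.25 to 0.002), Igf2 NM_001190163 (-0.19 to 0.058) and Dlk1 (-0.11 to 0.33); in PB against VEH, Dlk1 (-0.011 to 0.54).

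The values that turned sign under a setting were all of transcripts not called. In PB against VEH these were Snrpn (0.11) and Ndn (0.005) in series 1 alone, Dlk1 (-0.06) with the muscle covariate, Igf2 NM_001190162 with the muscle (-0.016), choroid plexus (-0.082) and neuronal (-0.047) covariates, and Peg3 (0.09) and Grb10 (0.016) with the GABA neuron covariate. In LEV against VEH, series 1 alone gave Mest -0.14, Dlk1 -0.002, Igf2 NM_031511 -0.006, Cdkn1c NM_182735 -0.087, Peg3 -0.036 and Grb10 -0.009, and series 2 alone Nap1l5 -0.032 and Ndn -0.027. With the excluded animal kept, Mest was -0.044, Dlk1 -0.07 and Cdkn1c NM_182735 -0.032. The GABA neuron covariate gave Nap1l5 -0.009 and Grb10 -0.004, and the muscle covariate Nap1l5 -0.001. In PB against LEV, the GABA neuron covariate gave Igf2 NM_001190162 0.24, Igf2 NM_001190163 0.45, Peg3 0.062 and Grb10 0.02. Series 1 alone gave Igf2 NM_001190162 0.17 and Igf2 NM_001190163 0.029, and series 2 alone Snrpn -0.037, Igf2 NM_031511 -0.04 and Cdkn1c NM_001033757 -0.20. The muscle covariate gave Snrpn -0.064, Dlk1 -0.11, Igf2 NM_031511 -0.11 and Cdkn1c NM_001033757 -0.10, the neuronal covariate Igf2 NM_031511 -0.084 and Cdkn1c NM_001033757 -0.018, and the meningeal covariate Cdkn1c NM_001033757 -0.003.

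The labels do not say that animal numbers mark pairs. Same-numbered animals deviated together with a median correlation of 0.00 (VEH and PB), -0.05 (VEH and LEV) and -0.03 (PB and LEV). With the number as a replicate block the calls among the 10 genes stayed at 1, 0 and 1, and the wider list in PB against VEH went from 5 to 2 (H19, Gnas and Nnat lost), and from 2 to 0 with the fold limit.

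Low counts limit Dlk1, Snrpn and Cdkn1c NM_001033758, and the division of counts between overlapping transcripts rests on the authors' estimation.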
